A study of Mus musculus with 8 samples.

Results

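The hypothalamic neuropeptide genes described here are *Oxt*, *Avp*, *Pomc*, *Agrp*, *Hcrt*, *Pmch*, *Trh*, *Ghrh*, *Crh* and *Gal*. They were chosen by symbol, and all 10 were found among the 24015 entries of the count table. Messenger RNA was sequenced from 8 inbred C57BL/6N mice at postnatal day 7 (P7), with 1 library per animal. The 1b deletion, made with Cas9, removes a conserved non-coding interval of *Scn1a*, which encodes a neuronal voltage-gated sodium channel subunit. The 2 WT mice, both male, had 0 copies of the deletion. The 4 1b+/- mice had 1 copy, and their replicates 1 and 2 were male and replicates 3 and 4 female. The 2 1b-/- mice, both female, had 2 copies. Sex and genotype therefore cannot be told apart between WT and 1b-/-. The study compared these genotypes for changes in gene expression. For the peptide genes, a further question is how much hypothalamic RNA the dissected tissue held, because the labels name the tissue as hippocampus and the study's methods name it as forebrain.

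The hypothalamus lies at the base of the forebrain and controls feeding, body water, sleep, stress and the pituitary. Each of its peptide systems is made by small groups of neurons as a large precursor, which is cut and modified into the active peptide. In the adult brain, *Oxt* (oxytocin), *Avp* (vasopressin), *Hcrt* (orexin) and *Pmch* (melanin-concentrating hormone) are known mainly from hypothalamic cell groups, whereas *Crh*, *Trh* and *Gal* are also made by neurons elsewhere in the forebrain.

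Libraries held 2947770 to 20878772 counts, and the shallowest was 1b+/- replicate 4. Levels are given as CPM, counts per 1000000 after TMM scaling, and for comparisons between genes as RPKM, which is CPM per kilobase of annotated exon. A count of 3, used as the floor, was worth 0.145 CPM where depth was highest and 1.001 CPM where it was lowest. *Scn1a* followed the labels, at 40.4 and 45.1 CPM in WT, 15.7 to 26.6 CPM in 1b+/- and 2.001 and 3.18 CPM in 1b-/-. Of 8 listed hippocampal markers, 7 passed the filter on low counts, and the 8 summed to 122 to 168 CPM across libraries. The 8 listed neocortical markers summed to 2012 to 3706 CPM, of which *Neurod6* alone had a mean of 1567 CPM. These sums are of different genes, so their sizes do not give the share of either region in the tissue. Regional markers were unequal among animals, since 1b+/- replicate 1 had 49.8 CPM of 13 midbrain and hindbrain genes against 5.003 to 22.2 CPM elsewhere, and 10 choroid plexus genes summed to 31.6 to 1042 CPM. In bulk tissue, fewer cells of a type and less RNA per cell cannot be told apart.

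*Oxt* and *Avp* lie next to each other on chromosome 2 and encode the 2 neurohypophysial hormones, and their sequences are shown because their near identity limits how 50-base reads can be divided between them. In the mm9 assembly, *Oxt* occupies chr2:130401909-130402790 on the plus strand and *Avp* chr2:130406356-130408290 on the minus strand. The codons of each hormone, taken as the 27 bases before the first in-frame codons for Gly-Lys-Arg, are in exon 1, at chr2:130402003-130402029 for *Oxt* and chr2:130408182-130408208 for *Avp*. Capitals mark the 5 bases that differ between the genes, and sequences run 5′ to 3′ along the transcript (GENCODE vM1).
Oxt hormone codons: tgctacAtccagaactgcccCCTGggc
Avp hormone codons: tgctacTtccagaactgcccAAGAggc

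Further along, the part encoding the carrier protein neurophysin became identical. The next 30-base windows straddle the left edge of that run and cross from exon 1 into exon 2, and capitals again mark differing bases, 6 in all. Their genomic spans, intron included, are chr2:130402049-130402339 for *Oxt* and chr2:130406981-130408162 for *Avp*.
Oxt edge of the shared run: acCtggaTAtgCgCAagtgtctcccctgcg
Avp edge of the shared run: acAtggaGCtgAgACagtgtctcccctgcg
The identical run was 127 bases, or 23.6% of the 537-base *Oxt* mRNA and 22.0% of the 577-base *Avp* mRNA. Of all 50-base windows, 78 of 488 in *Oxt* and 78 of 528 in *Avp* occurred in both. Reads from this run cannot be divided between the genes, and how such reads were counted is not stated. The other 8 peptide genes shared 0 windows of this length with another gene's transcript.

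The 10 peptide genes were scarce in all 8 libraries. Together they held 383 of 79435989 counts, or 4.82 CPM before scaling. *Trh* took 35.5% of those counts, *Crh* 17.8% and *Gal* 15.9%. The other 7 each took 7.31% or less, and *Hcrt* took 0.783%. Between 6 and 9 of the 10 genes had any count in a given library, and the libraries with 6 were 1b+/- replicate 4 and 1b-/- replicate 1. By contrast *Npy*, a peptide gene of cortical and hippocampal interneurons as well as the hypothalamus, held 10950 counts, or 28.6 for each count of the 10 genes together.

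The summed level of the 10 genes was 4.05 and 4.75 CPM in WT replicates 1 and 2 (mean 4.40 ± 0.494, SD, n = 2). In 1b+/- replicates 1 to 4 it was 4.62, 7.37, 5.13 and 3.67 CPM (mean 5.20 ± 1.57, SD, n = 4). In 1b-/- replicates 1 and 2 it was 2.81 and 5.003 CPM (mean 3.91 ± 1.55, SD, n = 2). The genotypes overlapped, and the highest sum, in 1b+/- replicate 2, included 3.83 CPM of *Trh*.

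**Figure D1:**
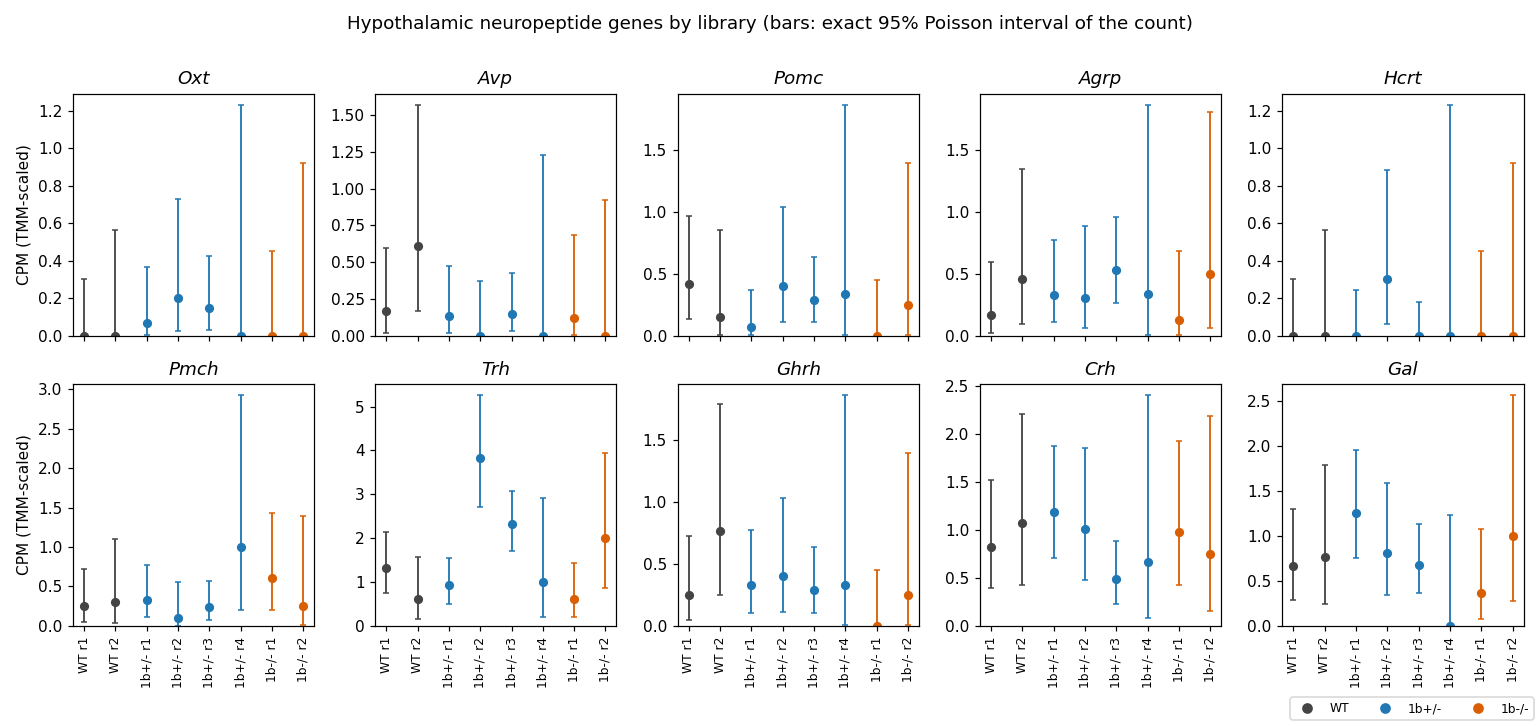
Level of each of the 10 hypothalamic peptide genes in each of the 8 libraries, in TMM-scaled CPM, with 1 panel per gene and the libraries along the x axis. Points are libraries and bars are exact 95% Poisson intervals of the counts. *Trh* reaches 3.83 CPM in 1b+/- replicate 2, and the other 9 genes stay at or below 1.25 CPM.

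The magnocellular hormones *Oxt* and *Avp* held 6 and 12 counts in all. *Oxt*, which encodes oxytocin, had 1, 2, 3 and 0 counts in 1b+/- replicates 1 to 4, and 0 counts in both WT and both 1b-/- libraries. All 6 counts were therefore in 1b+/-, and the highest *Oxt* level in any library was 0.202 CPM. The counts of 0 had upper 95% Poisson limits of 0.198 CPM in the pooled WT libraries and 0.303 CPM in the pooled 1b-/- libraries. *Avp*, which encodes vasopressin, had 2 and 4 counts in WT, 2, 0, 3 and 0 in 1b+/- and 1 and 0 in 1b-/-. Its highest level was 0.612 CPM in WT replicate 2. Both WT libraries (0.165 and 0.612 CPM) were above all 1b+/- libraries (at most 0.145 CPM) and both 1b-/- libraries (at most 0.122 CPM), each on 4 counts or fewer. Among tested genes, which did not include *Avp*, 12.3% did not overlap between 1b+/- and WT and 23.6% between 1b-/- and WT. The pooled WT level of *Avp*, 0.322 CPM (95% Poisson interval 0.118 to 0.701), overlapped the interval in 1b+/-, 0.0333 to 0.239 CPM. These intervals and limits cover counting error only, since reads carried no molecular identifiers.

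*Pomc* and *Agrp* act in opposite directions on feeding, *Pomc* encoding the precursor of the appetite-suppressing melanocortins and *Agrp* a peptide that blocks their receptor. *Pomc*, on chr12:3954951-3960618, had 5 and 1 counts in WT, 1, 4, 6 and 1 in 1b+/- and 0 and 1 in 1b-/-. *Agrp*, on chr8:108090600-108092198, had 2 and 3 counts in WT, 5, 3, 11 and 1 in 1b+/- and 1 and 2 in 1b-/-. The highest level in a library was 0.533 CPM for *Agrp* and 0.413 CPM for *Pomc*, and their levels overlapped among the 3 genotypes. Over all libraries *Agrp* was at 0.352 CPM (95% Poisson interval 0.234 to 0.509) and *Pomc* at 0.239 CPM (0.144 to 0.373).

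The lateral hypothalamic genes were also near the floor. *Hcrt*, which encodes the wake-promoting orexins, had 3 counts in all, each of them in 1b+/- replicate 2 (0.303 CPM), and 0 counts in the other 7 libraries. *Pmch*, which encodes melanin-concentrating hormone, had 3 and 2 counts in WT, 5, 1, 5 and 3 in 1b+/- and 5 and 1 in 1b-/-. Its highest level, 1.001 CPM, was 3 counts in the shallowest library. *Pmch* lies on chr10:87553817-87555120, where 435 of its 749 exonic bases overlap *Parpbp* on the opposite strand. *Parpbp* had 503 counts, and the use of strand in counting was not stated, so the 2 genes' reads may not be separate. No other peptide gene overlapped an annotated gene.

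The hypophysiotropic peptides, which act on the anterior pituitary, held most of the counts. *Crh*, encoding corticotropin-releasing hormone (chr3:19593401-19595396), was at 0.826 and 1.07 CPM in WT, 1.19, 1.01, 0.484 and 0.667 CPM in 1b+/- and 0.978 and 0.750 CPM in 1b-/-. Its genotype means were 0.949 ± 0.174 (SD, n = 2), 0.837 ± 0.319 (SD, n = 4) and 0.864 ± 0.161 CPM (SD, n = 2). *Crh* was the steadiest of the tested genes, its highest library being 2.45 times its lowest. *Ghrh*, encoding growth hormone-releasing hormone (chr2:157155233-157173242), had 3 and 5 counts in WT, 5, 4, 6 and 1 in 1b+/- and 0 and 1 in 1b-/-. The lower pooled *Ghrh* level in 1b-/-, 0.0821 CPM (95% Poisson interval 0.00208 to 0.458), rested on 1 count, and its interval overlapped that of WT, 0.185 to 0.846 CPM.

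*Gal* encodes galanin, an inhibitory peptide with both hypothalamic and other sources (chr19:3409919-3414472). It was at 0.661 and 0.765 CPM in WT, 1.25, 0.807, 0.678 and 0 CPM in 1b+/- and 0.367 and 1.001 CPM in 1b-/-. The library without a *Gal* count was the shallowest. Genotype means of 0.713 ± 0.0740 (n = 2), 0.685 ± 0.519 (n = 4) and 0.684 ± 0.448 CPM (n = 2, all SD) differed by less than the spread between libraries.

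*Trh* encodes thyrotropin-releasing hormone (chr6:92192055-92194644, minus strand) and was the most abundant of the 10. It was at 1.32 and 0.612 CPM in WT replicates 1 and 2, 0.923, 3.83, 2.32 and 1.001 CPM in 1b+/- replicates 1 to 4, and 0.612 and 2.001 CPM in 1b-/- replicates 1 and 2. The 1b+/- replicates 2 and 3 were therefore above all others, while the remaining 1b+/- libraries lay inside the WT range. Mean *Trh* CPM with its SD was 0.967 ± 0.502 for the 2 WT animals, 2.02 ± 1.37 for the 4 1b+/- animals and 1.31 ± 0.983 for the 2 1b-/- animals. Pooled by genotype, the counting intervals were 0.656 to 1.66 CPM in WT, 1.73 to 2.56 CPM in 1b+/- and 0.569 to 1.83 CPM in 1b-/-. These intervals leave out the spread between animals, which was 6.27-fold from the lowest to the highest library.

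Per length, the order of mean level over 8 libraries was *Trh* (1.14 ± 0.797 RPKM), *Gal* (0.971 ± 0.535), *Crh* (0.660 ± 0.176), *Agrp* (0.521 ± 0.227), *Pmch* (0.516 ± 0.384), *Ghrh* (0.490 ± 0.319), *Avp* (0.255 ± 0.348), *Pomc* (0.237 ± 0.152), *Oxt* (0.0961 ± 0.149) and *Hcrt* (0.0505 ± 0.143), all in RPKM with SD. No neighbours in that order differed by more than the larger of their SDs. Of 19761 genes with a count and an exon length, 56.8% had a higher mean RPKM than *Trh* and 89.9% a higher one than *Hcrt*. The highest value of any of the 10 genes in any library was 2.77 RPKM, for *Trh*, whereas the lowest *Npy* value was 208 RPKM.

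To ask whether genotype changed the peptide genes, they were tested with edgeR's quasi-likelihood test over every gene that reached 1 CPM in any library, with Benjamini-Hochberg adjusted p under 0.05 as the threshold. Of the 10, 4 passed the filter, *Trh*, *Crh*, *Gal* and *Pmch*, and the other 6 reached at most 0.742 unscaled CPM. *Pmch* passed only through its 3 counts in 1b+/- replicate 4. In 1b+/- against WT, 0 of the 4 tested genes passed the threshold, where 0.0834% of all 15588 tested genes did. *Trh* had the largest difference, a log2 fold change of 1.04 (SE 0.69, unadjusted p = 0.157, edgeR adjusted p = 0.9999), and was above the WT range in 2 of 4 libraries. The log2 fold changes of *Crh*, *Gal* and *Pmch* were −0.14 (SE 0.61), 0.16 (SE 0.76) and 0.19 (SE 1.03). Without 1b+/- replicate 2 the *Trh* value was 0.58 (unadjusted p = 0.395), without WT replicate 2 it was 0.67, and without WT replicate 1 it was 1.76.

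In 1b-/- against WT, 0 of 4 passed, against 0.00642% of all tested genes. The log2 fold changes were 0.19 (SE 0.88) for *Trh*, −0.07 (SE 0.75) for *Crh*, −0.19 (SE 0.99) for *Gal* and 0.77 (SE 1.17) for *Pmch*. Every one was smaller than its standard error. In 1b-/- against 1b+/-, 0 of 4 passed, and the background was again 0.00642%. *Trh* was lower by a log2 fold change of −0.84 (SE 0.74, unadjusted p = 0.277) without passing the test, and the value was −0.076 without 1b-/- replicate 1, −0.39 without 1b+/- replicate 2 and −1.77 without 1b-/- replicate 2. In the same comparison *Crh* had 0.06 (SE 0.65), *Gal* −0.36 (SE 0.86) and *Pmch* 0.58 (SE 0.99). The first 2 comparisons share the WT libraries, and all 3 share libraries with another.

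With the number of deleted alleles as a number, 0 of 4 passed, where 0.0385% of all tested genes did. *Trh* changed by a log2 of 0.16 per allele (SE 0.48), *Crh* by −0.04 (SE 0.35), *Gal* by −0.07 (SE 0.47) and *Pmch* by 0.39 (SE 0.56), none past the threshold. In 1b+/- females against 1b+/- males, 0 of 4 passed, against a background of 0.0321%. *Crh* and *Gal* had log2 fold changes of −1.04 (SE 0.70) and −1.01 (SE 0.86) in females, *Trh* −0.28 (SE 0.75) and *Pmch* 0.86 (SE 1.17), none past the threshold. At an unadjusted p under 0.05 the count was likewise 0 of 4 in each of the 5 comparisons, where all tested genes gave 4.34%, 1.64%, 1.23%, 1.73% and 2.66% in the order above. The likelihood ratio test of edgeR and the Wald test of DESeq2 also called 0 of the 4.

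For each of the 4 tested genes the libraries of the genotypes overlapped in all 3 genotype comparisons. Among all tested genes, 12.3% did not overlap between 1b+/- and WT, 23.6% between 1b-/- and WT and 7.39% between 1b-/- and 1b+/-. With no filter, 22443 genes and all 10 peptide genes could be fitted, and 0 of 10 passed in any comparison. The smallest unadjusted p was then 0.0945, for *Trh* in 1b+/- against WT. P-values here set a fitted difference against the spread between these animals, which edgeR estimated across genotypes and genes. They do not separate genotype from sex between WT and 1b-/-.

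**Figure D2:**
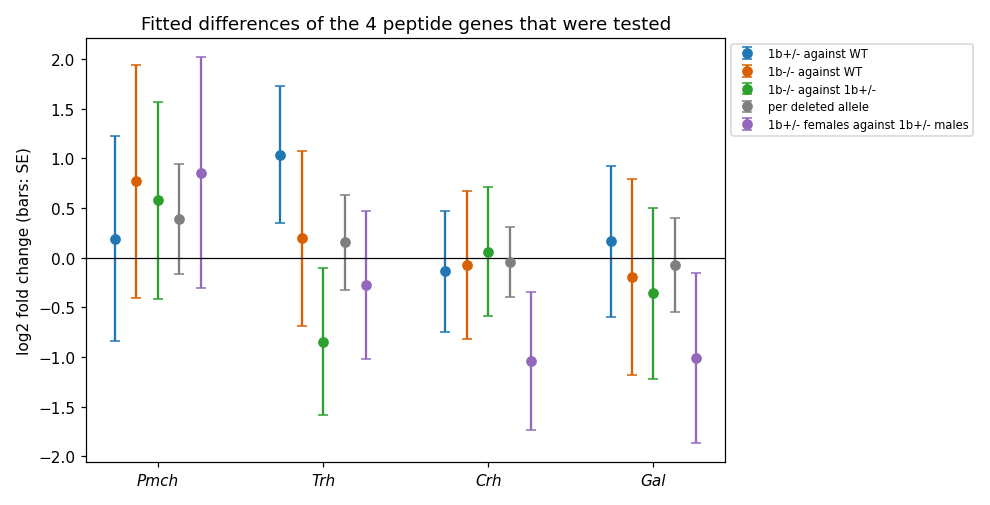
Fitted log2 fold changes of the 4 tested peptide genes (x axis) in the 3 genotype comparisons, per deleted allele and between the sexes of 1b+/-. Points are edgeR estimates, bars are standard errors, and *Trh* in 1b+/- against WT, at 1.04, is the highest point.

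The spread of the tested peptide genes between animals of a genotype was wide beside that of all tested genes. Their mean levels were low, from 0.386 CPM for *Pmch* to 1.58 CPM for *Trh*, and genes of like level were not compared. The biological coefficient of variation, the spread edgeR estimates beyond counting error, was 0.472 for *Trh*, 0.397 for *Pmch*, 0.377 for *Gal* and 0.339 for *Crh*, against a median of 0.185 over all tested genes. A larger value was found in 6.20% of tested genes for *Trh* and in 14.4% for *Crh*.

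The genes most like *Trh* across the 8 libraries, by root mean square difference of the centred log2(CPM + 0.5), were *Gpc5* (0.265) and *Frmd7* (0.313), where the spread of *Trh* itself was 0.650. *Frmd7* was at 2.97 and 2.60 CPM in WT, 1.91, 10.4, 6.59 and 4.003 CPM in 1b+/- and 2.81 and 4.002 CPM in 1b-/-. Like *Trh*, it was highest in 1b+/- replicates 2 and 3. For *Gal* the closest genes were *Grin2d* (0.115), *Chac1* (0.185) and *Six4* (0.192), for *Crh* they were *Bcat2* (0.101), *Dlk1* (0.116) and *Cpeb1* (0.125), and for *Pmch* they were *Tmppe* (0.127), *Hemk1* (0.156) and *Ankef1* (0.169). These are among the closest of 13960 candidates over 8 libraries that differ in depth, and the likeness is a description.

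A list of 8 genes of the olfactory bulb, written after these patterns were seen, is given beside *Trh*. Its summed level was 614 and 643 CPM in WT, 571, 946, 781 and 975 CPM in 1b+/- and 544 and 758 CPM in 1b-/-. *Cdhr1*, a gene of the bulb's projection neurons, was at 3.72 and 2.91 CPM in WT, 4.35, 60.8, 26.2 and 30.4 CPM in 1b+/- and 4.04 and 21.5 CPM in 1b-/-. Of the 8 genes, 5 were highest in replicate 2, the 1b+/- library with the most *Trh*. *Shisa3* and *Lhx5* were highest in 1b+/- replicate 1 (48.4 and 10.4 CPM, against 5.65 and 4.04 CPM in replicate 2), and *Reln* in replicate 4. Replicate 2 was also the highest library for 6 of 8 neocortical markers and 6 of 13 midbrain and hindbrain genes. The summed level of the bulb genes was highest in replicate 4, where *Trh* was 1.001 CPM. That sum was mostly *Reln* (752 of 975 CPM), and without *Reln*, left out after the values were seen, the other 7 genes summed to 357 CPM in replicate 2 and 223 CPM in replicate 4. Which library had the highest sum therefore depended on whether *Reln* was counted, and no conclusion is drawn from that order. *Tbx21*, which defines the same neurons, was at 0 in WT replicate 2 and at most 2.72 CPM. By edgeR's quasi-likelihood test 0 of the 8 were called in any of the 5 comparisons, and *Cdhr1* and *Shisa3* had an unadjusted p under 0.05 in 1b+/- against WT and *Shisa3* between the sexes. The choroid plexus genes summed to 31.6 CPM in 1b+/- replicate 2, their lowest library. The part of either tissue in the *Trh* level was not tested.

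**Figure D3:**
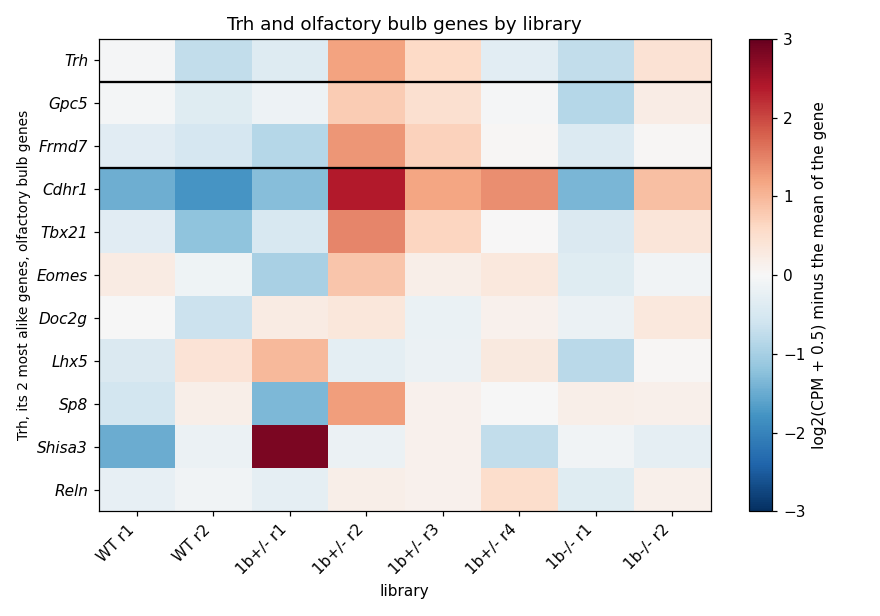
Centred log2(CPM + 0.5) of *Trh*, its 2 most alike genes and 8 olfactory bulb genes (rows) in the 8 libraries (columns), with colour giving the difference from the mean of the gene. *Trh*, *Gpc5* and *Frmd7* are highest in 1b+/- replicate 2.

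Other peptide genes known from the hypothalamus were a mixed group. Of 24 listed, 15 passed the filter and 12 reached a mean of 1 RPKM, against 1 of the 10 genes described here. The most abundant were *Npy* (255 RPKM), *Sst* (158 RPKM), *Nts* (38.1 RPKM) and *Penk* (16.5 RPKM), all of which neurons outside the hypothalamus also make. *Sst*, encoding somatostatin, was highest in WT replicate 2 at 138 CPM and lowest in 1b+/- replicate 2 at 24.9 CPM, so that its lowest library was the one with the most *Trh*. The edgeR quasi-likelihood test called 0 of the 15 in each of the 5 comparisons, and the median log2 fold change was −0.08 in 1b+/- against WT, where it was 0.01 over all tested genes. At an unadjusted p under 0.05, the counts were 1, 1, 0, 1 and 3. Named after their values were seen, these were *Tac2* in 1b+/- against WT (log2 fold change −1.35), *Gnrh1* in 1b-/- against WT (3.05) and per allele (1.45), and *Cartpt* (−3.72), *Grp* (0.78) and *Adcyap1* (−0.73) between the sexes. *Gnrh1* held 30 counts in all and *Cartpt* 29, near the limit of the filter. Their highest levels were 1.25 CPM in 1b-/- replicate 2 and 1.12 CPM in the male 1b+/- replicate 1. Each thus peaked in the group where it was fitted higher, and no conclusion is drawn from these 2 genes.

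**Figure D4:**
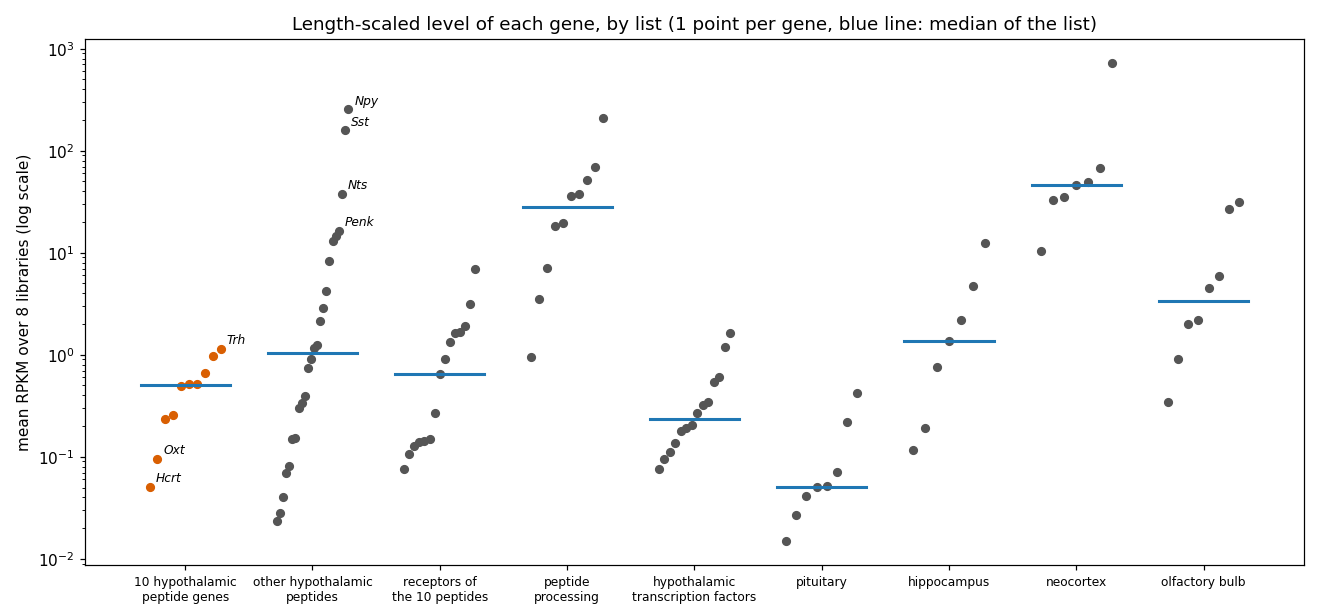
Mean RPKM over 8 libraries, on a log scale, of each of the 10 hypothalamic peptide genes (orange points) and of the genes with an exon length in 8 other lists, from other peptides to olfactory bulb genes (grey points, x axis), with blue lines at the medians. The 10 genes lie between 0.0505 and 1.14 RPKM, whereas *Npy* lies at 255 RPKM.

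Some receptors of the 10 peptides were more abundant than their ligands and others less. Of 16 listed receptor genes, 12 passed the filter, and the most abundant by CPM were *Mc4r*, the melanocortin receptor that *Agrp* blocks (6.97 RPKM), *Trhr*, the *Trh* receptor (3.18 RPKM), *Hcrtr2*, an orexin receptor (1.92 RPKM), and *Oxtr*, the oxytocin receptor (1.32 RPKM). Per length, *Oxtr* and *Hcrtr2* were above *Oxt* (0.0961 RPKM) and *Hcrt* (0.0505 RPKM). Named after their values were seen, *Galr1* (0.649 RPKM) was below *Gal* (0.971 RPKM) and *Ghrhr* (0.150 RPKM) below *Ghrh* (0.490 RPKM). The median of the receptors with an exon length was 0.649 RPKM, against 0.503 RPKM for the 10 peptide genes. The list summed to 50.7 to 70.2 CPM per library. The edgeR quasi-likelihood test called 0 of 12 in each of the 5 comparisons, and 0 of 12 were under an unadjusted p of 0.05. *Trhr* had a log2 fold change of −0.36 (SE 0.27) in 1b+/- against WT and −0.10 (SE 0.32) in 1b-/- against WT.

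The machinery that turns precursors into peptides was well detected in every library. All 10 listed genes passed the filter, with a median of 27.9 RPKM against 0.503 RPKM for the 10 peptide genes. *Cpe*, which trims cleaved precursors, was at 210 RPKM, *Chgb*, a secretory granule protein, at 69.3 RPKM, *Scg2*, another granule protein, at 37.5 RPKM and *Pam*, which amidates peptides, at 18.3 RPKM. In this list 0 of 10 genes were called in each of the 5 comparisons by edgeR's quasi-likelihood test, and 0 had an unadjusted p under 0.05.

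Transcription factors of the developing hypothalamus were detected at low levels. Of 14 listed, 10 passed the filter, with a median of 0.236 RPKM, and the most abundant by CPM were *Sim1* (0.55 RPKM), *Fezf1* (1.65 RPKM), *Nkx2-1* (1.19 RPKM) and *Tbx3* (0.61 RPKM), each of which is also known outside the hypothalamus. *Sim1*, needed for the neurons that make *Oxt*, *Avp*, *Crh* and *Trh*, was highest in 1b+/- replicate 1 at 7.45 CPM, where *Trh* was 0.923 CPM. The midbrain and hindbrain sum was also highest there, mainly through *En1*, *En2* and *Gata3* (10.3, 15.6 and 16.7 CPM), while 6 of the 13 genes were highest in 1b+/- replicate 2 and 5 in replicate 1. The list summed to 12.97 and 23.1 CPM in WT, 26.0, 19.9, 21.8 and 13.3 CPM in 1b+/- and 14.4 and 19.3 CPM in 1b-/-, which overlapped among genotypes. By the edgeR quasi-likelihood test 0 of 10 were called in each of the 5 comparisons. At an unadjusted p under 0.05 by that test, the counts were 1, 1, 0, 0 and 2 of the 10. *Tbx3* had an unadjusted p of 0.00954 in 1b+/- against WT (log2 fold change 1.28, SE 0.41) and 0.0335 in 1b-/- against WT (1.16, SE 0.48). *Foxb1*, named after its value was seen, was 1 of the 2 between the sexes. Genes of the pituitary, the gland that the hypophysiotropic peptides act on, were nearer to 0. Their sum was at most 2.20 CPM, and 1 of 8, *Pitx1*, passed the filter and was not called. For the lists of olfactory bulb genes, other peptides, receptors, processing genes, transcription factors and pituitary genes the likelihood ratio test and DESeq2 also called 0 genes. In the lists of other tissues, where the quasi-likelihood test called 0 genes of choroid plexus or of midbrain and hindbrain, the likelihood ratio test called *Slc4a5* and *Tmem72* of choroid plexus in 1b+/- against WT, of which DESeq2 called *Tmem72*, and both tools called *En2* and *Gata3* between the sexes.

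**Figure D5:**
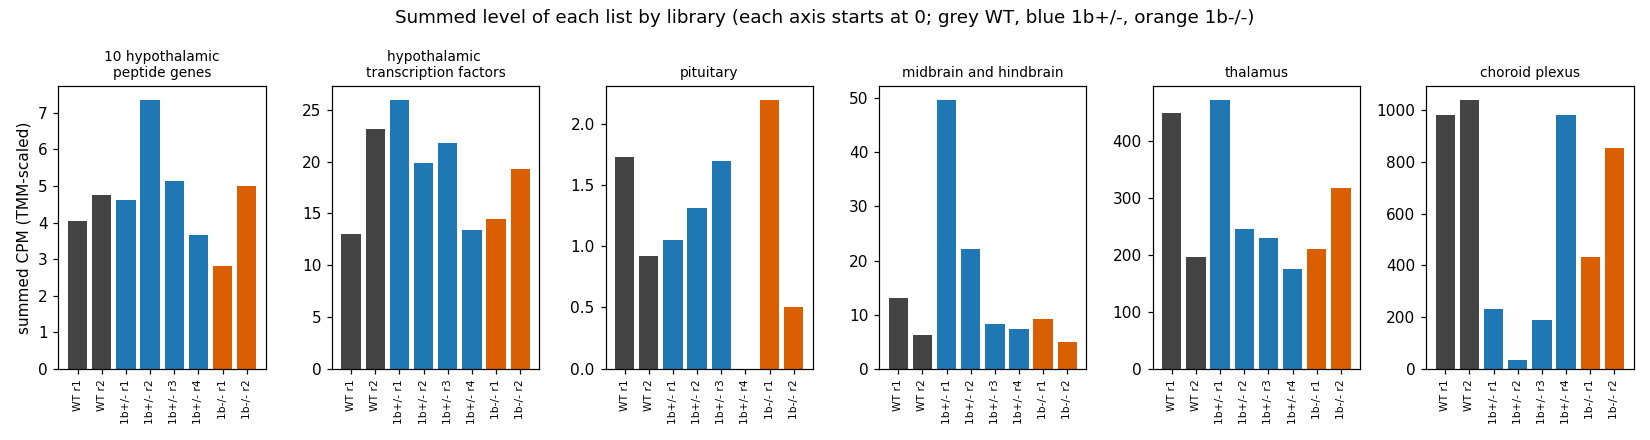
Summed CPM of the 10 hypothalamic peptide genes and of the lists of hypothalamic transcription factors, pituitary, midbrain and hindbrain, thalamus and choroid plexus genes in each library, 1 panel per list, with grey bars for WT, blue for 1b+/- and orange for 1b-/-, each axis starting at 0. The sum of the 10 genes runs from 2.81 to 7.37 CPM, and the genotypes overlap.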

How the data were processed

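As the study's methods and the labels state, the authors made TruSeq Stranded mRNA libraries, read them from 1 end (50 bases), aligned reads to mm9 with STAR 2.7.2 and obtained gene counts with featureCounts. The deposited values are raw counts per gene symbol, with 1 column per animal. The strand setting and multi-match rule are not given in the sources used here. All 8 columns were used (0 others), and replicates were numbered in accession order. Counts were tested in R 4.3.3 with edgeR 4.0.16 (quasi-likelihood, TMM, genotype as factor, all 8 libraries, at least 1 CPM in 1 library, Benjamini-Hochberg at 0.05), and in DESeq2 1.42.0 as an alternative. The fit was tested on simulated data, with changes planted only in genes of higher mean level than any of the 10 peptide genes. That test therefore does not show how changes would be recovered at the level of the peptide genes. CPM used whole-library totals times TMM factors, and RPKM used GENCODE vM1 exon unions (20738 symbols matched). Like genes were sought among tested genes with a mean of at least 1 CPM. Depth was 2947770 to 20878772 counts. Named genes were the 10 peptide genes, their 3 most alike genes each, up to 4 genes per list by mean CPM, and *Scn1a*, and some genes under this rule are not reported here. Members and lists were chosen with earlier results of these data known. The alternatives were other filters and scalings, other tests, sex as a covariate, subsets of animals and omission of each library.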

Additional observations from a re-analysis of the deposited data

Results flagged for a closer look

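Among the 4 1b+/- libraries, 1 library stood apart from the others in 2 of the 23 levels examined, where about 1 in 20, or 1.15, would do so by chance. *Agrp* was high in 1b+/- replicate 3 (0.533 CPM, from 11 counts), with a gap to the nearest library of 0.866 of the whole range. *Hcrt* was high in 1b+/- replicate 2 (0.303 CPM, from 3 counts), with a gap of 1.0 of the range, since the other 3 libraries held 0 counts.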

How the results depend on the processing

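Under all 79 alternatives of the 5 comparisons, 0 of the tested peptide genes passed the threshold, and the smallest unadjusted p in any fit was 0.0586 (*Trh*, 1b+/- against WT, without 1b+/- replicate 1). Of 287 alternative log2 fold changes, 28 changed sign, 9 with sex as a covariate and 19 with 1 library left out. None of the values involved had passed the test. With sex as a covariate, *Pmch* became −0.22 in 1b+/- against WT, −0.084 in 1b-/- against WT and −0.036 per allele, *Crh* became 0.24, 0.97 and 0.44 in the same comparisons, and *Gal* became 0.82 in 1b-/- against WT, 0.26 in 1b-/- against 1b+/- and 0.43 per allele. The cause was not tested.

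Leaving out 1 library gave, in 1b+/- against WT, −0.40 to 0.12 for *Crh* and −0.21 to 0.36 for *Gal*. In 1b-/- against WT it gave −0.73 to 0.96 for *Trh*, −0.31 to 0.10 for *Crh*, −0.92 to 0.50 for *Gal* and −0.11 to 1.14 for *Pmch*. In 1b-/- against 1b+/- it gave −0.19 to 0.33 for *Crh*, −1.08 to 0.33 for *Gal* and −0.31 to 0.94 for *Pmch*. Per allele it gave −0.17 to 0.62 for *Trh*, −0.15 to 0.050 for *Crh* and −0.26 to 0.22 for *Gal*, and between the sexes −1.20 to 1.05 for *Trh*, 0.26 to 2.05 for *Pmch* and −6.16 to −0.60 for *Gal*. The lowest *Gal* value leaves 1 female library, with 0 counts, and so depends on the prior count. For *Trh* in 1b-/- against 1b+/- the range was −1.77 to −0.076. A lone animal left in a group was assumed to vary like the others.

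Fewer peptide genes were tested under filterByExpr (*Trh* alone), *Pmch* was lost in males alone, with only the WT and 1b-/- animals and without 1b+/- replicate 4, and *Crh* was lost in females alone. Over all genes, calls in 1b+/- against WT were 13, and 57 with no filter, 64 by the likelihood ratio test, 24 by DESeq2, 0 with sex as a covariate, 0 in males and 0 to 30 with 1 library left out. In 1b-/- against WT they were 1, and 33, 23 and 13 by the first 3, 15 with only those genotypes and 1 to 16 with 1 library left out. In 1b-/- against 1b+/- they were 1, and 0 to 1. Per allele they were 6, and 24, 31, 3 by upper quartile scaling, 3 by DESeq2, 0 with sex and 0 to 13. Between the sexes they were 5, and 85, 20, 14 and 5 to 46. The sum of the 10 genes moved by less than 1 SD under other scalings. No paired analysis was made, because each library is from a separate animal and the labels used here give no pairing of animals.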
